A study of Mus musculus with 100 samples.

Results

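The genes described here are 8 regulators of cardiac gene expression: Nkx2-5, Isl1, Tbx5, Tbx20, Hand2, Mef2c, Myocd and Smyd1. They were chosen by name as listed cardiac transcription regulators, and each was read as its transcript with the most reads. They are 8 of 23109 gene-level entries in 37 RNA-seq tables from mouse embryonic stem cells (ESCs), cultures derived from them, and intact embryos.

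The heart forms from mesodermal progenitors in which a small set of transcription factors acts together on muscle, signalling and patterning genes. Nkx2-5 and Isl1 are homeodomain factors, and Isl1 is known as a marker of second heart field progenitors that also acts in motor neurons. Tbx5 and Tbx20 are T-box factors, and Hand2 is a basic helix-loop-helix factor of the outflow tract and right ventricle that also acts in limb buds, pharyngeal arches and sympathetic neurons. Mef2c is a MADS-box factor used in heart, vessels and neurons, Myocd is a coactivator of serum response factor in heart and smooth muscle, and Smyd1 is a striated-muscle protein needed to build the sarcomere. MLL3 and MLL4 are the methyltransferases that place H3K4me1 at enhancers.

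The study asked what the methyltransferase activities of MLL3 and MLL4 do in early development and in ESC differentiation. Every culture was Mll3-/-. The reference cultures carried Mll4flox/flox alleles, called flox below, and the compared cultures carried Mll4KI/KI knock-in alleles, called KI. The KI cultures came from clones 27 and 48, so the cultured KI values rest on these clones. RNA was measured in ESCs at day 0, in embryoid bodies (EBs) at days 4 and 10, in retinoic acid-treated neural aggregates at day 8 and in neurons at day 16. Trophectoderm cultures at day 6 expressed Doxycycline-inducible CDX2 from a lentivirus, and extraembryonic endoderm cultures were grown for 5 days with retinoic acid and Activin A. In the ESC and EB course flox had 1 library a day, while the other cultures had 2 libraries per genotype. The embryos, taken whole at stage E8.5 or E9.5, all carried Mll3flox/KI and Sox2-Cre, with Mll4flox/+ in controls and Mll4flox/KI in the compared group, and there were 3 libraries per group. Sox2-Cre is known to recombine floxed alleles in the epiblast and its derivatives. Gene-level reads cannot show whether a knock-in protein is active, so the genotypes rest on the labels.

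Gene-level totals ran from 18.91 to 59.88 M reads per library, so 3 reads, the lowest level read as present, correspond to 0.0501 to 0.159 CPM, the reads of a gene per 1000000 gene-level reads of its library. Summed marker levels followed most labels. The 7 pluripotency markers reached 5398 to 6468 CPM in ESCs, the 8 neuronal markers 1014 to 6671 CPM in the neural libraries and the 8 trophoblast markers 3307 to 3386 CPM in flox and 6028 to 6299 CPM in KI trophectoderm cultures. The 9 extraembryonic endoderm markers stood at 1251 to 1276 CPM in flox endoderm cultures but at 140 to 145 CPM in the KI ones. The same endoderm cultures held 3158 to 5036 CPM of trophoblast markers. The 18 cardiac sarcomere and cardiomyocyte genes summed to 3218 CPM in the flox day 10 EB library and to 545 to 2384 CPM in embryos. In bulk RNA such as this, fewer cells of a type and less RNA per cell cannot be told apart.

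To let the reader see the regulatory sequence of the genes on which the results turn, the 250 bases before the RefSeq transcription start (GRCm38.p6, 5′ to 3′ on the strand of the gene) are given for 3 of them. Hand2 is shown at chr8:57320733-57320982 on the plus strand, Isl1 at chr13:116309689-116309938 on the minus strand and Smyd1 at chr6:71262282-71262531 on the minus strand. Capitals mark GATA hexamers in Hand2 and Isl1, and in Smyd1 an NKX2-5 motif followed by a TATA hexamer.
Hand2: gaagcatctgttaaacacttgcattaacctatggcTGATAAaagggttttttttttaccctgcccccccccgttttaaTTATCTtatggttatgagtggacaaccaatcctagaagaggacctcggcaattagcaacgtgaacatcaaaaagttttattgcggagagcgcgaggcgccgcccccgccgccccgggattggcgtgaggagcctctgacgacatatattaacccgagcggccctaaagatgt
Isl1: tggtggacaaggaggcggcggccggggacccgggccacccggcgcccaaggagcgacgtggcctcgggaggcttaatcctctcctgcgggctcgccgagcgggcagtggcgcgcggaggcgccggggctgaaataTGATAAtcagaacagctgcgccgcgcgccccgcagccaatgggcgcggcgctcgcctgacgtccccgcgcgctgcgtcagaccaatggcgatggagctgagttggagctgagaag
Smyd1: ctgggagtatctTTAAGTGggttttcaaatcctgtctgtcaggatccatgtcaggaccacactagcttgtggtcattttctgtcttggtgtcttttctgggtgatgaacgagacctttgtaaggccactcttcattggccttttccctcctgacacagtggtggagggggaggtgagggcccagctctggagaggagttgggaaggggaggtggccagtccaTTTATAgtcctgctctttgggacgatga

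The set of promoter windows used here held 8 start windows for 6 of the members and none for Tbx5 or Myocd. The GATA search took AGATAA or TGATAA, and either hexamer with G as its last letter, on both strands, and it matched 2 member windows, those of Hand2 and Isl1, against 26.5% of 32851 windows of all genes. In Hand2 the hexamers lay at bases -215 to -210 and -172 to -167 from the start, and in Isl1 at -115 to -110. The NKX2-5 motif TNAAGTG was found in the Smyd1 window, at -238 to -232, against 10.1% of all windows, and did not overlap another motif. The TATA hexamer (TATAAA, either strand) lay at -28 to -23 in Smyd1 and was also found in 2 of 3 Mef2c windows, against 12.4% of all windows. No member window held the T-box motif GGTGTGA (3.3% of all windows), a MEF2 site (2.9%) or a CArG box (1.5%). The E-box CANNTG was in 5 of the 8 windows and in 66.2% of all windows. The Tbx20 window held none of the 7 motifs and the Nkx2-5 window only an E-box. These are letter matches in a short window.

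All members were low in ESCs and higher in EBs of day 10. In the single flox ESC library the highest member was Hand2 at 0.688 CPM, and Mef2c had no read. In the KI clones Isl1 stood at 1.61 and 1.47 CPM against 0.423 CPM in flox, and Tbx5 at 0.594 and 0.715 CPM against 0.159 CPM. The KI values of these genes lay above the lone flox value, but no member passed the test between genotypes in ESCs (edgeR quasi-likelihood, Benjamini-Hochberg adjusted p at or above 0.05). There, 11.9% of 16567 tested genes were called, 1 member had an unadjusted p under 0.05, and DESeq2 called 0 members.

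At EB day 4 Hand2 and Tbx20 were lower in KI. Hand2 was at 13.3 CPM in the flox library and at 3.11 and 2.26 CPM in KI clones 27 and 48. Tbx20 was at 17.6 CPM in flox and at 4.84 and 3.57 CPM in KI. Each KI value lay well under the flox value. The fitted log2 difference was -2.28 ± 0.20 (SE) for Hand2 (edgeR adjusted p = 0.0017) and -2.03 ± 0.19 for Tbx20 (adjusted p = 0.0022). With 1 flox library a day, this fit takes the spread of that library from the KI clone pairs of all 3 days. These 2 of 8 members were the ones called, where 7.7% of all tested genes were called and 5.05% were called lower.

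Isl1, which had 10.5 CPM in flox and 2.83 and 2.53 CPM in KI at day 4, differed by -1.94 ± 0.49 on the log2 scale and did not pass (adjusted p = 0.068). DESeq2 called it, with an adjusted p of 0.0118. Smyd1 had 0.919 CPM in flox against 0.274 and 0.317 CPM in KI (adjusted p = 0.078), and was called with reads summed over its transcripts (adjusted p = 0.0471). Tbx5 had 10 reads in flox and 2 in each KI clone, a ratio of 5.62 of flox to KI reads per depth with an exact 95% counting interval of 1.62 to 24.5 (adjusted p = 0.098). Nkx2-5, Mef2c and Myocd did not pass either: Nkx2-5 was at 0.664 CPM in flox and at 0.868 and 0.95 CPM in KI. Besides Tbx5, the KI means of Hand2, Tbx20, Isl1 and Smyd1 were lower than the flox values by ratios of 3.11 to 4.96, while those of Nkx2-5, Mef2c and Myocd lay within a ratio of 1.37 of flox.

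Other regulators of the same progenitors moved at day 4 as well. Of 30 further cardiac regulators tested, 7 were lower and 1 was higher in KI. Gata5, a GATA zinc finger factor, was lower by 5.26 on the log2 scale, Hand1, the paralog of Hand2, fell by 4.71, and the forkhead factor Foxc2 fell by 4.24. The Hand1 level was 71.2 CPM in flox and 2.47 to 2.85 CPM in KI. Gata4 was at 84.6 CPM in flox and 35.2 to 39.2 CPM in KI. Of the 18 sarcomere genes, 7 were lower, including Actc1 (cardiac actin) by 2.62 in log2. The medians of these lists were -0.44 and -1.11 against 0.00 for all tested genes.

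Markers of other cell types differed in the same day 4 libraries. The smooth muscle markers summed to 1225 CPM in flox and 502 to 622 CPM in KI, with 4 of 7 lower, and the limb and lateral plate markers to 105 CPM and 40.9 to 46.6 CPM, also with 4 of 7 lower. The endothelial sums were 308 CPM in flox and 68.7 to 72.9 CPM in KI, with 2 of 8 lower and 1 higher, and the epicardial ones 39 CPM and 5.34 to 5.43 CPM, with 1 of 6 lower. Trophoblast markers summed to 2186 CPM in flox and 821 to 888 CPM in KI, with 3 of 7 tested lower. Extraembryonic endoderm markers summed to 145 CPM in flox and 65 to 76 CPM in KI. Pluripotency markers were at 794 CPM in flox and 1427 to 1482 CPM in KI, with 3 of 7 higher. The part of these cell types in the values of the 8 regulators at day 4 was not tested.

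From ESCs to EB day 4 in the KI clones 5 members rose and Tbx5 fell (-2.87 ± 0.58), where 47.5% of all tested genes changed and 25% rose, while Isl1 and Smyd1 did not pass. From day 4 to day 10 all 8 members rose in the KI clones, where 70.6% of all tested genes changed and 35.4% rose. The rises in KI ran from 2.88 ± 0.43 in log2 for Isl1 to 7.20 ± 0.18 for Hand2 (adjusted p from 5.6e-07 to 0.0011). The flox libraries went from 13.3 to 228 CPM for Hand2, from 17.6 to 179 CPM for Tbx20 and from 0.511 to 52.0 CPM for Tbx5. Isl1 in flox was already at 10.5 CPM at day 4 and stood at 15.0 CPM at day 10.

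Tbx5 and Smyd1 were lower in KI at day 10, and Hand2 was higher. Tbx5 was at 52.0 CPM in flox and at 7.52 and 12.6 CPM in KI clones 27 and 48, a log2 difference of -2.37 ± 0.28 (adjusted p = 0.0037). Smyd1 was at 35.2 CPM in flox and at 7.01 and 4.75 CPM in KI, a difference of -2.59 ± 0.27 (adjusted p = 0.0024). Both KI clones lay far under flox for these genes. Hand2 had 228 CPM in flox and 376 and 462 CPM in KI, a difference of 0.88 ± 0.16 (adjusted p = 0.019). Both this call and the lower one of day 4 rest on 1 flox library each, and the change of the KI difference between the days was not tested. The call rate over all tested genes was 10.5%, with 5.49% higher and 4.96% lower, and 3 of 8 members were called.

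The other 5 members did not pass the test at day 10. Tbx20 was at 179 CPM in flox and at 205 and 185 CPM in KI, a log2 difference of 0.13 ± 0.16. Nkx2-5 was at 20.5 CPM in flox against 12.4 and 10.2 CPM in KI (-0.86 ± 0.24, adjusted p = 0.064), and Mef2c at 41.5 CPM against 27.8 and 26.6 CPM (adjusted p = 0.15). Myocd was at 18.6 CPM in flox against 15.8 and 10.7 CPM in KI. For Isl1 the clones lay on either side of flox, at 29.8 CPM in clone 27 and 12.5 CPM in clone 48 against 15.0 CPM. Leaving out either KI clone of day 10 raised the members called to 6 and the genes called from 1732 to 4548 without clone 27 and to 4952 without clone 48. Nkx2-5 and Mef2c were then called lower in both cases, Myocd was called lower without clone 27, and Isl1 was called higher without clone 48. Each of these fits leaves a single KI library beside the single flox library at day 10. Its spread then comes only from the KI clone pairs of ESCs and day 4, so its calls do not measure the spread at day 10. The day 10 KI clones differed from each other more than those of the earlier days, with a chi-square per degree of freedom of 41.7 against 6.08 in ESCs and 5.66 at day 4.

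**Figure D1:**
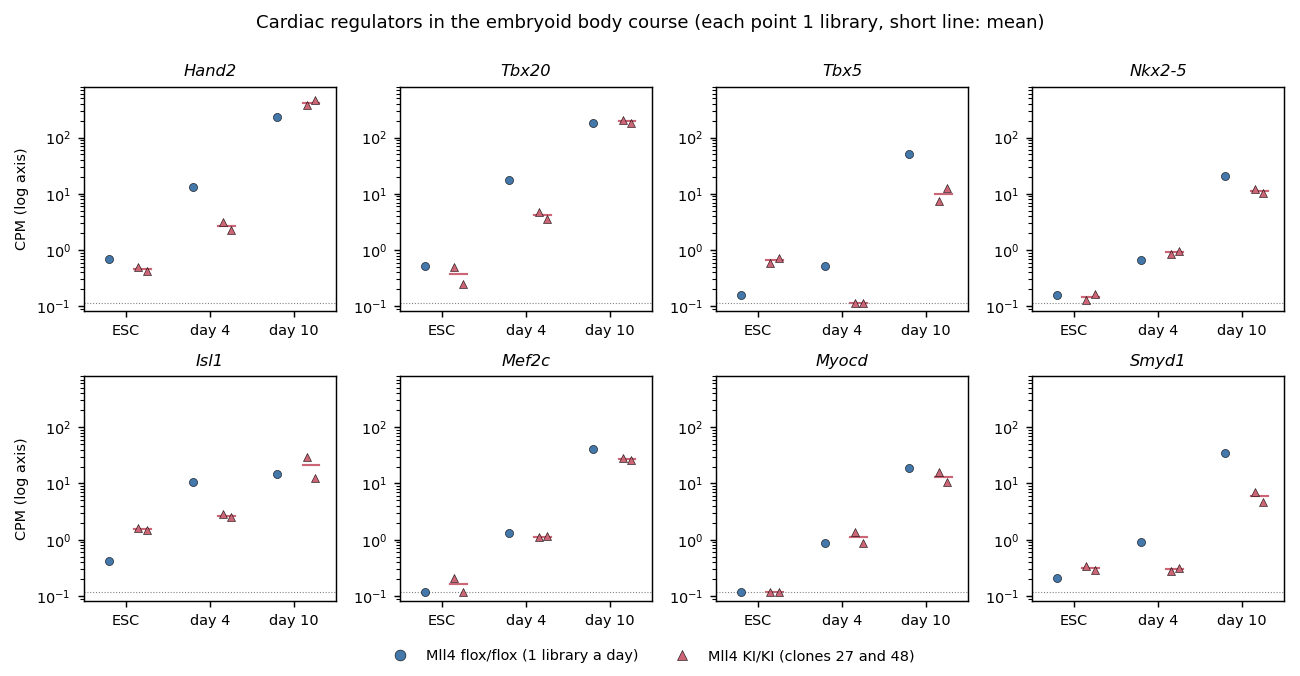
Level of each regulator in CPM (log axis) in ESCs and in EBs at days 4 and 10, for flox (circles, 1 library a day) and KI clones 27 and 48 (triangles, line at their mean). Values under the dotted line, 3 reads in the deepest library, are drawn on it. Hand2 and Tbx20 sit lower in KI at day 4 but not at day 10, while Tbx5 and Smyd1 sit lower in KI at day 10.

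Most of the listed sarcomere and cardiomyocyte genes were also lower in KI at day 10. A link between them and the levels of the members was not tested. Of the 18 sarcomere and cardiomyocyte genes, 15 were called lower and 1 higher, with a median of -2.61 against 0.01 for all tested genes. Myh6, the alpha myosin heavy chain of heart muscle, was at 1004 CPM in flox and at 76.9 to 119 CPM in KI. Actc1 was at 420 CPM in flox and at 28.4 to 42.1 CPM in KI, and Tnnt2, cardiac troponin T, differed by -2.45 in log2. Nppb, a natriuretic peptide, was the gene called higher, by 1.70 in log2. Gata4, at 356 CPM in flox and 239 to 304 CPM in KI, was not called (adjusted p = 0.13), and neither was Hand1, at 108 CPM in flox and 140 to 193 CPM in KI. Among the 30 further regulators 5 were lower, led by Gata5 at -3.82, Casz1 at -2.39 and Foxc2 at -1.98, and Tbx3, a T-box repressor of the conduction system, was higher by 2.08.

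Some markers of neighbouring cell types differed at day 10 too. Of 6 epicardial markers, 4 were lower in KI, and their summed level was 520 CPM in flox against 48.4 to 97.9 CPM in KI. Of 8 endothelial markers 1 was lower, with sums of 659 CPM in flox and 472 to 561 CPM in KI. The summed smooth muscle markers were at 1386 CPM in flox and 2600 to 2869 CPM in KI, with 1 of 7 higher. The summed pluripotency markers were at 73.8 CPM in flox and 149 to 195 CPM in KI, with 3 of 7 higher, and the summed extraembryonic endoderm markers at 524 CPM and 927 to 1151 CPM, with 4 of 9 higher. Trophoblast markers were at 670 CPM in flox and 1021 to 1592 CPM in KI, with 2 of 7 tested higher, and neural progenitor markers at 211 CPM and 144 to 207 CPM, with 2 of 7 lower and 1 higher. The part of these cell types in the values of the 8 regulators was not tested.

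An additive fit of genotype over ESCs and both EB days called none of the 8 members, where 0.73% of all tested genes were called. In that edgeR fit 2 members had an unadjusted p under 0.05. DESeq2 called 1 member, Smyd1. The nearest value was that of Smyd1, at -1.74 ± 0.45 (adjusted p = 0.13).

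In embryos the KI group was higher, and by E9.5 nearly the whole set was. At E8.5, Hand2 was at 65.9, 75.3 and 70.7 CPM in the 3 control libraries and at 107, 107 and 116 CPM in the 3 KI libraries, with no overlap. The log2 difference was 0.64 ± 0.08 (adjusted p = 0.00016). Isl1 was at 13.9, 12.2 and 11.2 CPM in controls and at 22.1, 24.6 and 20.9 CPM in KI, a difference of 0.86 ± 0.12 (adjusted p = 0.00032). Tbx20 was at 24.3, 23.3 and 18.5 CPM in controls and at 55.9, 37.0 and 50.2 CPM in KI, the widest difference of the set at this stage, at 1.12 ± 0.18 (adjusted p = 0.0016). Tbx5 was at 14.4, 16.9 and 13.7 CPM in controls and at 25.3, 20.0 and 22.3 CPM in KI (0.59 ± 0.13, adjusted p = 0.012). All KI libraries lay above all control libraries for these 4 genes and for Nkx2-5, thus in 5 of 8 members, and in 12.6% of genes with a mean of at least 1 CPM.

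These 4 of 8 members were the ones called higher at E8.5, where 5.46% of all tested genes were called and 3.63% were called higher. Tbx5 lost its call without control library 1, without control library 3 or without KI library 1, with adjusted p-values up to 0.0775. Nkx2-5 was at 25.0, 22.3 and 20.8 CPM in controls and at 40.6, 32.3 and 26.2 CPM in KI, also without overlap, but did not pass (0.55 ± 0.18, adjusted p = 0.10). The library titles share a number between a control and a KI library, and these pairs deviated together at E8.5. The main fit does not use that number. With that number as a block, Nkx2-5 was called (0.53, adjusted p = 0.0283), 5 members were called, and the genes called rose from 843 to 1304. Smyd1 was at 12.3, 17.0 and 12.2 CPM in controls and at 30.5, 20.1 and 16.4 CPM in KI, with overlapping groups (adjusted p = 0.11). DESeq2 called both Nkx2-5 and Smyd1 at this stage, and edgeR called Smyd1 without KI library 3. Mef2c and Myocd had overlapping groups and were not called.

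At E9.5, 7 of 8 members were higher in KI and Isl1 was not, where 29.5% of all tested genes were called and 14.6% were called higher. Nkx2-5 had the widest difference. It was at 5.56, 7.79 and 5.32 CPM in controls and at 31.6, 21.9 and 21.3 CPM in KI, a ratio of means of 4.01 and a log2 difference of 2.00 ± 0.20 (adjusted p = 3.5e-06). Tbx20 was at 7.15, 8.87 and 12.6 CPM in controls and at 24.8, 24.7 and 26.1 CPM in KI (1.40 ± 0.18, adjusted p = 5.5e-05). Hand2 was at 52.4, 45.2 and 54.1 CPM in controls and at 91.3, 96.1 and 108 CPM in KI (0.96 ± 0.08, adjusted p = 1.4e-07). In each of these genes the lowest KI library stood above the highest control library.

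Mef2c, Myocd, Smyd1 and Tbx5 were higher in KI at E9.5 as well. Mef2c was at 14.6, 14.6 and 14.3 CPM in controls and at 28.2, 30.2 and 25.8 CPM in KI (0.95 ± 0.11, adjusted p = 5.2e-06). Myocd was at 2.34, 2.34 and 1.43 CPM in controls and at 4.68, 4.20 and 4.42 CPM in KI (1.11 ± 0.25, adjusted p = 0.0023). Smyd1 was at 9.61, 9.24 and 7.61 CPM in controls and at 22.9, 14.2 and 19.1 CPM in KI (1.08 ± 0.24, adjusted p = 0.0037). Tbx5 was at 11, 12.1 and 14.4 CPM in controls and at 22.5, 26.2 and 25.3 CPM in KI (0.98 ± 0.13, adjusted p = 2.1e-05). Isl1 was at 22.0, 25.2 and 22.3 CPM in controls and at 22.3, 23.0 and 28.0 CPM in KI, and did not differ beyond its spread (0.07 ± 0.12, adjusted p = 0.69). KI libraries were all above control libraries in 7 of 8 members, and in 23.7% of genes with a mean of at least 1 CPM. All 7 calls held in each alternative fit tried at this stage.

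**Figure D2:**
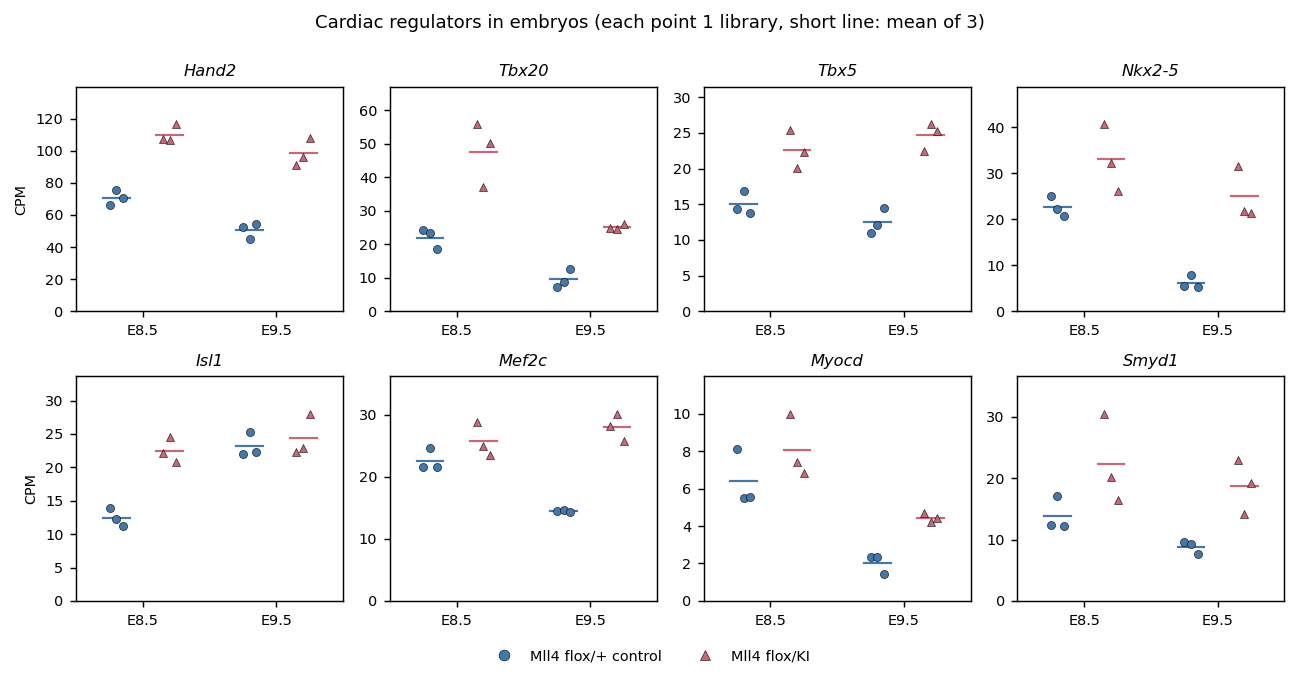
Level of each regulator in CPM (linear axes from 0) in embryos of stages E8.5 and E9.5, for Mll4flox/+ controls (circles) and Mll4flox/KI (triangles), 3 libraries a group with a line at the mean. At E9.5 the groups are apart in 7 panels and overlap in that of Isl1.

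The levels also changed between stages. In controls from E8.5 to E9.5, 6 members fell and Isl1 rose, where 24.2% of all tested genes were called, with 12.1% lower and 12.2% higher. Nkx2-5 fell from a mean of 22.7 ± 2.1 (SD, n = 3) to 6.23 ± 1.4 CPM, by 1.92 in log2, Myocd fell by 1.70 and Tbx20 by 1.28. Isl1 rose from 12.4 ± 1.4 to 23.2 ± 1.8 CPM, by 0.83 ± 0.12 in log2 (adjusted p = 6.4e-05). Smyd1, which fell by 0.72 (adjusted p = 0.042), lost its call in 9 of 12 alternative fits, among them leaving out any control library of either stage, with adjusted p-values up to 0.139. Tbx5 did not pass (adjusted p = 0.078) but did without E9.5 control library 3 (adjusted p = 0.0211).

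In KI embryos over the same interval 3 members fell, where 32.5% of all tested genes were called and 16.6% fell. Tbx20 fell by 0.99 ± 0.17 and Myocd by 0.93 ± 0.23 in log2. Hand2 fell by 0.23 ± 0.08 (adjusted p = 0.040), a call lost in 7 of 12 alternatives, among them leaving out any E8.5 KI library or E9.5 KI library 1 or 2 (adjusted p up to 0.142). Nkx2-5 went from 33.0 ± 7.3 to 24.9 ± 5.8 CPM and did not pass (adjusted p = 0.060), although it did without E8.5 KI library 3 or E9.5 KI library 1. Isl1 stood at 22.5 ± 1.9 CPM at E8.5 and 24.4 ± 3.1 CPM at E9.5. Of the E8.5 KI libraries, 2 of 3 lay in the range of Isl1 that controls held at E9.5, and the other was below it.

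The KI difference itself changed between the stages in 3 members, where 6.63% of all tested genes were called, 3.39% upward and 3.24% downward. It grew for Nkx2-5, by 1.45 ± 0.27 in log2 (adjusted p = 0.0046), and for Mef2c, by 0.76 ± 0.16 (adjusted p = 0.0063). It shrank for Isl1, by -0.79 ± 0.17 (adjusted p = 0.0090). For Tbx20, Hand2, Tbx5, Myocd and Smyd1 the change between stages did not pass the test, with adjusted p-values from 0.12 for Hand2 to 0.56 for Tbx20. These contrasts share their control libraries with the single-stage ones above.

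Most of the listed cardiac muscle genes were also higher in KI at E9.5. Of 18 sarcomere and cardiomyocyte genes, 13 were higher and Pln (phospholamban) was lower in KI, with a median of 1.21 against 0.01 for all tested genes. Myl3, Myh7 and Actn2 led them, at 1.78, 1.77 and 1.67 in log2. Their summed level was 545 to 710 CPM in controls and 1281 to 2384 CPM in KI, without overlap. At E8.5 no sarcomere gene was called and 2 had an unadjusted p under 0.05 in edgeR, with sums of 894 to 1495 CPM in controls and 1247 to 2157 CPM in KI. Of the 30 further regulators, 13 were higher and 3 lower at E9.5. Gata4 was at 11.6 to 21.9 CPM in controls and 42.8 to 54.3 CPM in KI, Gata6 differed by 1.70, Hand1 by 2.01 and Mef2b by 2.86, while Mesp2, a somite segmentation factor, was lower by 4.74. Mef2b shares its locus with a readthrough gene, so its reads are uncertain. At E8.5, 6 of the 30 were higher, among them Hand1 at 1.32 and Tbx3 at 0.66, and Foxc1 was among those lower.

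Neuronal genes differed the other way in the same E9.5 libraries. The 8 neuronal markers summed to 186 to 277 CPM in controls and 50.2 to 54.6 CPM in KI, and 6 of them were called lower. At E8.5 they were at 52.6 to 60.8 CPM in controls and 49.8 to 59.7 CPM in KI. Other marker sums did differ without overlap at E8.5. Primitive blood was at 724 to 1474 CPM in controls and 116 to 220 CPM in KI, with no marker called by edgeR and 7 of 7 at an unadjusted p under 0.05. Endothelial markers were at 275 to 326 CPM in controls and 363 to 523 CPM in KI, with 4 of 8 higher, and epicardial ones at 122 to 159 CPM and 70.8 to 78.4 CPM, with 2 of 6 lower and 1 higher. Of 7 motor neuron markers tested, a lineage that also uses Isl1, 4 were lower in KI at E9.5 with a median of -0.94, and 2 were higher at E8.5. The 7 primitive blood markers summed to 3392 to 9327 CPM in controls at E9.5 and 622 to 3168 CPM in KI, and 1 of them was called lower. Smooth muscle markers were higher in 5 of 7 and endothelial markers in 4 of 8 at E9.5. Extraembryonic endoderm markers summed to 107 to 119 CPM in E9.5 controls and 212 to 348 CPM in KI, with 3 of 9 higher, and trophoblast markers to 181 to 365 CPM and 460 to 504 CPM, with 3 of 8 higher. At E8.5 the smooth muscle, trophoblast, arch and limb and lateral plate sums were also higher in every KI library than in every control library, and the neural progenitor sum was lower, with 1 or 2 markers called in each list. The part that these tissues have in the levels of the 8 regulators was not tested.

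In neural cultures Tbx5 and Mef2c reached the highest CPM of the set, but in the KI clones at day 8 Isl1 (mean 3.39 CPM) and Hand2 (2.75 CPM) stood above both. Hand2 and Isl1 had between 37 and 179 reads in every neural library, and Nkx2-5, Tbx20 and Myocd at most 33. At day 8, Tbx5 was at 11 CPM in both flox libraries and at 0.459 and 0.634 CPM in KI clones 27 and 48. The flox level lay in the range of whole E9.5 control embryos, whose lowest library had 11 CPM. The embryo libraries are labelled total RNA and the neural ones polyA, so these levels are set side by side only as values. The log2 difference was -4.29 ± 0.19 (adjusted p = 7.2e-08). Mef2c was at 5.17 and 4.98 CPM in flox and at 1.81 and 1.47 CPM in KI (-1.60 ± 0.17, adjusted p = 3.4e-05). Smyd1 was at 1.04 and 1.15 CPM in flox and at 0.161 and 0.205 CPM in KI (-2.53 ± 0.33, adjusted p = 0.00015). These 3 of 8 members were called lower and none higher, where 19.5% of all tested genes were called and 13.2% were lower. The flox libraries of day 8 were close to each other, with a chi-square per degree of freedom of 1.5, and with them summed into 1 the same 3 calls held.

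Some other members had few reads at day 8. Nkx2-5 had 1 and 4 reads in the flox libraries of day 8 and 5 to 10 in KI, and Tbx20 had 0.510 and 0.625 CPM in flox. The 18 sarcomere genes summed to 20.4 to 21.6 CPM in flox and 8.80 to 9.23 CPM in KI, and 7 of 15 tested were lower in KI. Markers of vessels and mesothelium were lower as well. All 8 endothelial markers were called lower, with sums of 132 CPM in flox and 23.1 to 29.2 CPM in KI, and all 6 epicardial markers were, with sums of 126 to 130 CPM in flox and 30.4 to 41.8 CPM in KI. Gata4 was at 42.0 CPM in flox, and differed by -2.51 in log2. Limb and lateral plate markers, of a tissue that also uses Tbx5, were at 338 to 339 CPM in flox and 239 to 268 CPM in KI, with 6 of 7 lower. The part of these cell types in the Tbx5 and Mef2c values was not tested.

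At neural day 16, Tbx5, Myocd and Isl1 differed and Mef2c no longer did. Tbx5 was at 4.43 and 4.31 CPM in flox and at 0.888 and 0.785 CPM in KI (-2.18 ± 0.18, adjusted p = 2.1e-06). Myocd was at 0.599 and 0.564 CPM in flox and had 3 reads in clone 27 and 1 in clone 48. The ratio of flox to KI reads per depth was 16.6, with an exact 95% counting interval of 6.15 to 63.3. Isl1 was at 0.763 and 0.948 CPM in flox and at 1.35 and 1.82 CPM in KI (1.11 ± 0.27, adjusted p = 0.0057). The Isl1 call was lost without flox library 1 or without clone 48, with adjusted p-values up to 0.0622. Mef2c was at 9.28 and 7.46 CPM in flox and at 8.29 and 7.65 CPM in KI, with overlapping groups. Hand2 was at 1.94 and 2.67 CPM in flox and at 1.42 and 1.1 CPM in KI and did not pass (-0.65 ± 0.26, adjusted p = 0.054). It was called lower in 4 of 10 alternatives, among them leaving out flox library 1 and fitting only the libraries compared. The call rate over all tested genes was 46.9%, with 27.1% higher and 19.7% lower, and 3 of 8 members were called. The epicardial markers stayed apart, at 129 to 134 CPM in flox and 6.81 to 11.6 CPM in KI, while 8 of 8 neuronal markers were higher in KI. The neuronal sums were 1577 to 1599 CPM in flox and 1014 to 1184 CPM in KI at day 8, with 7 of 8 lower, and 4000 to 4370 CPM and 6196 to 6671 CPM at day 16. Smooth muscle markers were at 95 to 103 CPM in flox and 47 to 58.3 CPM in KI at day 16, with 5 of 7 lower, and motor neuron markers at 7.39 to 8.54 CPM and 9.29 to 9.36 CPM, with 2 of 6 tested higher and 1 lower. The part of these cells in the Myocd and Isl1 values was not tested.

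From day 8 to day 16, 77.1% of all tested genes changed in flox and 79.9% in KI, so a change of a member in time is no exception there. Mef2c rose by 0.76 ± 0.15 in flox and by 2.48 ± 0.17 in KI. Tbx5 fell by 1.30 ± 0.15 in flox and rose by 0.80 ± 0.23 in KI, a call that was lost without day 8 clone 27 (adjusted p = 0.0512). The KI difference changed between days in 5 members, where 33.2% of all tested genes were called, 19.2% upward and 14% downward. With the KI clones and flox library numbers as a block, Isl1 was called as well, at 0.96 in log2, which made 6 members. By this test it moved up for Mef2c by 1.72 ± 0.22, for Smyd1 by 2.46 ± 0.40 and for Tbx5 by 2.10 ± 0.27, and down for Myocd by -3.76 ± 0.70 and for Hand2 by -1.19 ± 0.36. All 8 neuronal markers moved up by the same test, and their part in the Mef2c value was not tested. The Hand2 term was lost in 4 leave-one-out fits, those without day 8 flox library 1, day 16 flox library 2, day 8 clone 27 or day 16 clone 48 (adjusted p up to 0.107).

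**Figure D3:**
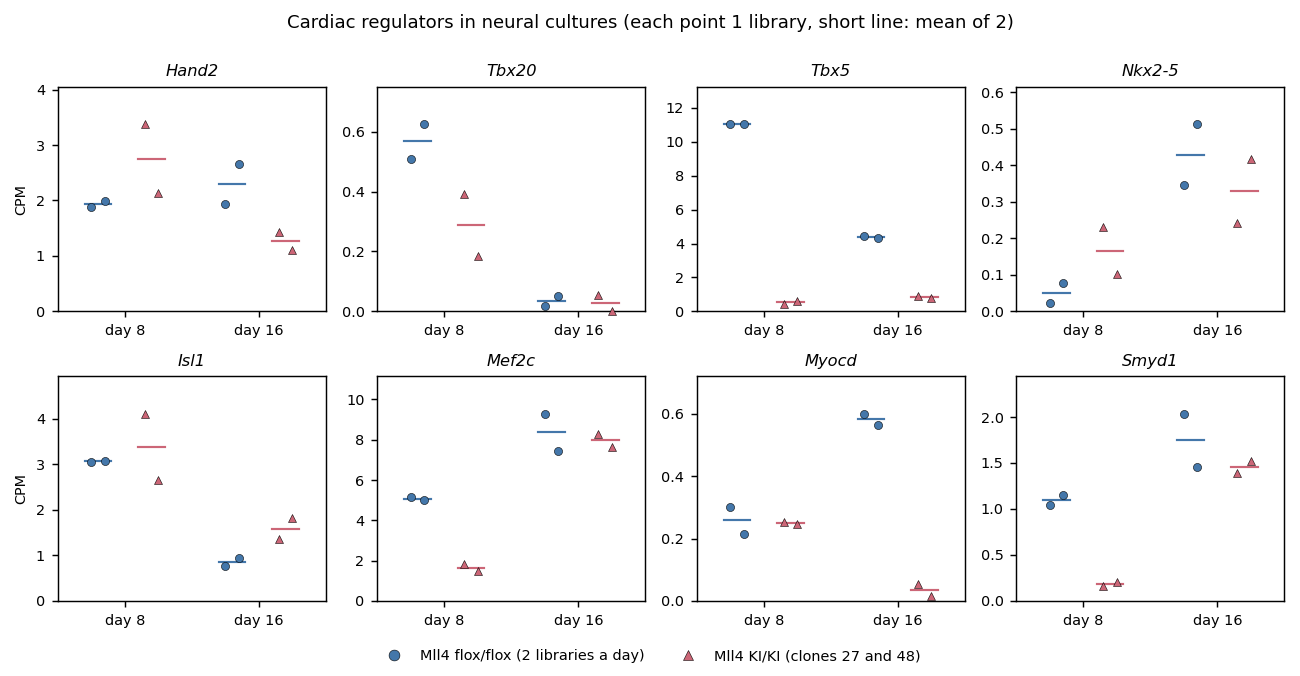
Level of each regulator in CPM (linear axes from 0, which differ between panels) in neural cultures at days 8 and 16, for flox (circles) and KI clones 27 and 48 (triangles), with lines at the mean of 2. Tbx5 is lower in KI on both days, and Mef2c and Smyd1 are apart at day 8 and overlap at day 16.

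In the extraembryonic cultures Smyd1 was lower and Isl1 higher in KI. In trophectoderm cultures Hand2 had 4 and 2 reads in flox and 124 and 119 in KI, the latter being 4.51 and 4.32 CPM. The ratio of KI to flox reads per depth was 37.0 (exact 95% counting interval 16.8 to 102, counting error only). Isl1 was at 0.370 and 0.230 CPM in flox and at 1.71 and 2.50 CPM in KI (log2 difference 2.83 ± 0.38, adjusted p = 2.5e-05). Tbx20 was at 6.91 and 5.11 CPM in flox and at 13.2 and 10.6 CPM in KI (1.02 ± 0.18, adjusted p = 0.00024). Mef2c had 0 and 2 reads in flox and 12 and 16 in KI, and Smyd1 was at 1.19 and 1.57 CPM in flox and at 0.145 and 0.508 CPM in KI (-2.04 ± 0.64, adjusted p = 0.016). Of 7 tested members 4 were called higher and 1 lower, where 50.9% of all tested genes were called, 26.7% higher and 24.2% lower. In the same trophectoderm libraries 7 of 8 trophoblast markers were higher and 1 lower, and all 7 pluripotency markers were lower, with sums of 1240 to 1245 CPM in flox and 418 to 549 CPM in KI. The neural progenitor markers were at 330 to 346 CPM in flox and 62.7 to 84.9 CPM in KI, and the part of these cells in the members' values was not tested. The Mef2c call was lost without flox library 1, and the Smyd1 call without flox library 2 or clone 27.

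In extraembryonic endoderm cultures Isl1 was at 4.99 and 5.16 CPM in flox and at 14 and 17.6 CPM in KI (1.61 ± 0.24, adjusted p = 0.00012). Smyd1 was at 1.89 and 1.69 CPM in flox and had 1 and 4 reads in KI, a ratio of 14.7 of flox to KI with a counting interval of 6.03 to 46.7. Myocd was at 13.4 and 11.6 CPM in flox and at 5.82 and 9.75 CPM in KI. Its call (-0.72 ± 0.26, edgeR adjusted p = 0.043) was lost by DESeq2 and in 4 other alternatives, among them leaving out either flox library or clone 27. Nkx2-5 (7.36 and 8.79 CPM in flox, 7.50 and 10.1 CPM in KI), Tbx20 (18.2 and 18.5 CPM in flox, 20.2 and 21.5 CPM in KI) and Hand2 (25.8 and 20.0 CPM in flox, 13.6 and 22.7 CPM in KI) were not called. Hand2 was called lower without clone 48. Of 7 tested members 1 was called higher and 2 lower, where 35.5% of all tested genes were called, 18.1% higher and 17.4% lower. Tbx5 was under the count filter in both kinds of culture. The KI endoderm cultures held 140 to 145 CPM of the endoderm markers against 1251 to 1276 CPM in flox, and all 9 were called lower. Smooth muscle markers were at 4206 to 4234 CPM in flox and 4872 to 5870 CPM in KI, with 2 of 7 higher. Arch and crest markers were at 109 to 110 CPM in flox and 192 to 235 CPM in KI, with 4 of 7 higher and 1 lower. Sympathetic neuron markers were at 48.1 to 50.5 CPM and 76.3 to 85.2 CPM, with 2 of 4 tested higher and 1 lower, and motor neuron markers at 5.04 to 7 CPM and 9.52 to 10.2 CPM, with 1 of 5 tested higher. The part of these lineages in the Isl1 value was not tested.

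**Figure D4:**
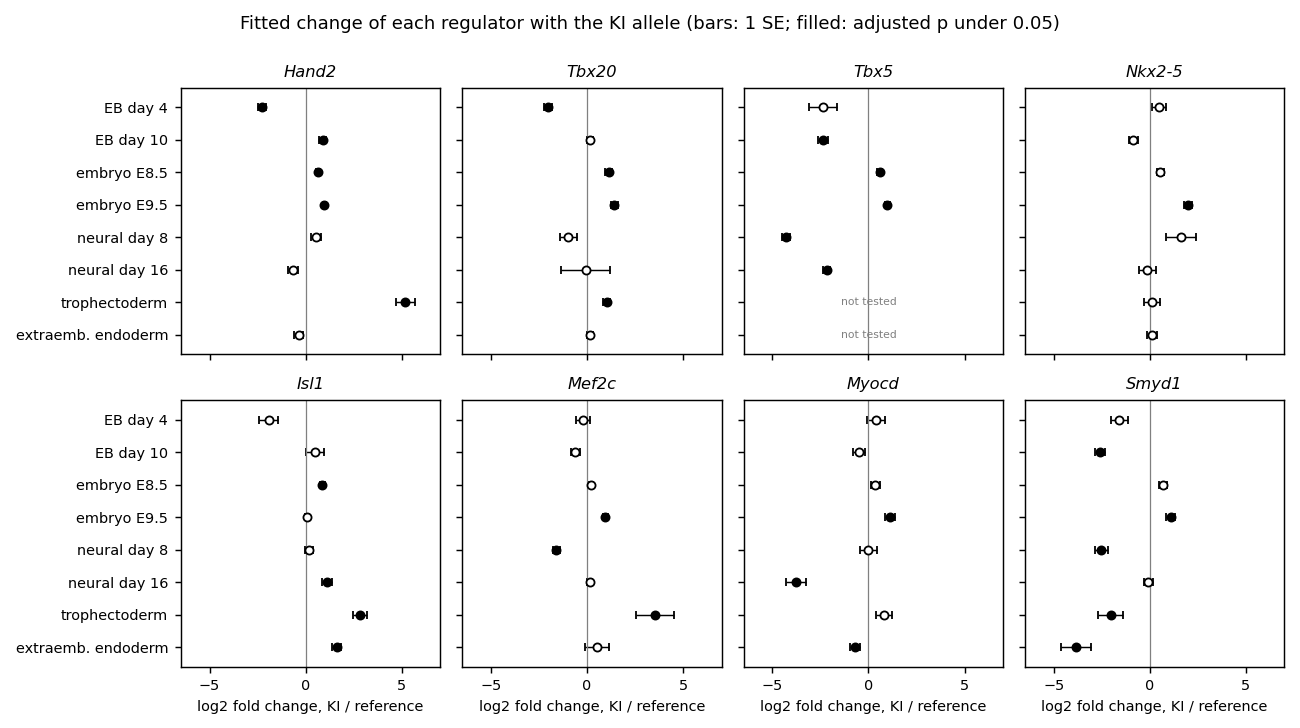
Fitted log2 fold change of each regulator, KI against its reference, in 8 comparisons (horizontal axis, bars 1 standard error, filled points with an adjusted p under 0.05). Embryo points lie at or above 0 in every panel, while Tbx5 and Smyd1 lie below 0 in EBs and at neural day 8.

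Set side by side, each member had its own record over these comparisons. Smyd1 was called lower in 4 culture comparisons, EB day 10, neural day 8, trophectoderm and extraembryonic endoderm, and higher in E9.5 embryos. Tbx5 was called lower in EB day 10 and on both neural days, and higher in embryos at both stages. Isl1 was called higher in E8.5 embryos, at neural day 16, in trophectoderm and in extraembryonic endoderm. Tbx20 was lower at EB day 4 and higher in embryos and trophectoderm. Nkx2-5 was called at E9.5, and at E8.5 only in alternative fits, among them that with the shared title numbers as a block. Its difference at E9.5 was tested only against that at E8.5. Whether embryos and cultures differ was not tested across libraries, because the allele sets are not the same and the RNA of ESC, EB and neural samples was labelled polyA but that of the embryos total.

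**Figure D5:**
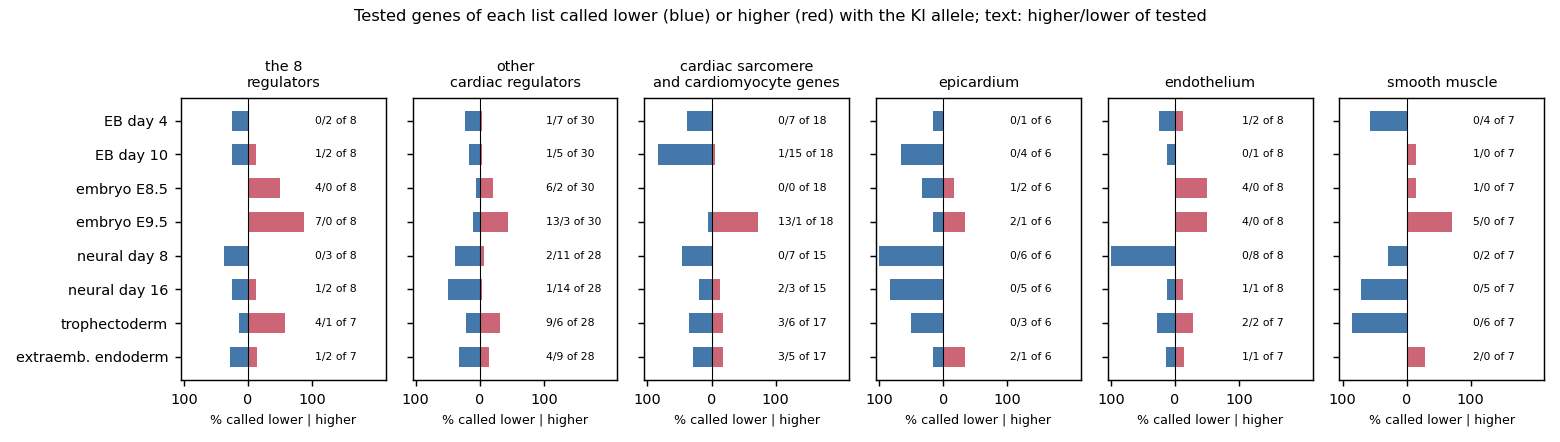
Share of tested genes called lower (left, blue) or higher (right, red) with the KI allele, in percent, for the 8 regulators and 5 related lists in 8 comparisons, with counts printed as higher/lower of tested. At EB day 10, 15 of 18 sarcomere genes are lower while 2 of the 8 regulators are, and at E9.5 13 of 18 and 7 of 8 are higher.

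By level per length (deposited RPKM of the transcript used), Hand2 was the highest member in most groups. In the flox EB library of day 10 the RPKM values were 81.0 (Hand2), 22.0 (Tbx20), 10.7 (Nkx2-5), 10.5 (Tbx5), 8.32 (Smyd1), 5.12 (Mef2c), 4.72 (Isl1) and 2.88 (Myocd). In the KI clones of that day Smyd1 had the lowest mean RPKM, 1.41, but in clone 27 Tbx5 lay under it (1.54 against 1.68). The means of Tbx5 (2.05) and Myocd (2.07) did not differ beyond their spread, with Myocd higher in clone 27 and Tbx5 higher in clone 48. In E8.5 controls Hand2 led at 24.3 RPKM, followed by Nkx2-5 at 11.5 RPKM, and Myocd was last at 0.963 RPKM. At E9.5 Isl1 took the second place in controls, at 7.12 RPKM, and Nkx2-5 the third, at 3.18 RPKM. In neural day 8 flox libraries Tbx5 was first, at 1.81 RPKM.

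Across the 18 groups the members did not share 1 profile. The highest mean of Tbx5, 52.0 CPM, was in flox EBs of day 10, those of Hand2 and Tbx20, 419 and 195 CPM, were in KI EBs of day 10, and that of Nkx2-5, 33.0 ± 7.3 CPM, was in E8.5 KI embryos, overlapping those of E9.5 KI. Pearson correlations of mean log2(CPM + 0.5) over the 18 groups ran from 0.462 for Tbx5 with Tbx20 to 0.918 for Tbx5 with Mef2c and for Nkx2-5 with Myocd. The groups share KI clones and mix libraries labelled polyA with libraries labelled total RNA, so these levels and correlations are descriptions.

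Searched over 15637 genes by the same measure, Smyd1 was nearest to Mhrt (0.973), the noncoding transcript of the Myh7 locus, and to Mylk3 (0.963) and Asb2 (0.962). Nkx2-5 was nearest to Ramp1 (0.967), Ankrd1 (0.935) and Foxf2 (0.934). Ankrd1, a cardiac ankyrin repeat protein, was also among the 3 nearest of Tbx20 (0.944) and Myocd (0.938), and the other neighbours of these genes were Gm15217 and Bambi, and Txndc5 and Ece1. Tbx5 was nearest to Adora2a (0.948), Emcn (0.946) and Clec1b (0.942), of which Emcn is an endothelial sialomucin. Hand2 was nearest to Popdc2, Nkx2-3 and Hlx, Mef2c to Spon1, Rhoj and Gm16897, and Isl1 to Actc1 (0.895), Scara3 and Bmp5. The neighbours of Isl1 had the weakest values of the 8 sets.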

How the data were processed

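RNA-seq tables of 37 libraries in 18 groups were used. The deposited read counts and RPKM values are listed for 29082 RefSeq transcripts per table; the counting tool and strand setting are not given in the sources used here, and the submitters' processing notes name mm9, STAR and Bowtie2. The labels' protocols describe poly(A) selection, while the embryo and extraembryonic samples are labelled total RNA. The deposited RPKM values were used only to compare levels between genes. ChIP-seq and ATAC-seq samples and 1 RNA library of Mll3-/-;Mll4-/- neural cells were not analysed here.

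From these, 28436 accessions were matched to symbols through RefSeq (GRCm38.p6; 646 were not matched) and 1 transcript per gene, that with the most reads, was kept, which retained a median of 71.8% of the reads. CPM is reads over this gene-level total, per library. Counts were tested in edgeR 4.0.16 (R 4.3.3; filterByExpr with a minimum count of 10, TMM scaling, robust quasi-likelihood, adjusted over all tested genes). A gene is called at an adjusted p under 0.05, and SE is the log2 difference over the square root of F. The ESC and EB libraries, the neural libraries, the embryos and the extraembryonic cultures were fitted apart. The titles give embryo libraries a shared number with a suffix of their own and name the KI clones, but do not say that flox libraries came from separate cultures, so p-values there measure only the spread between these libraries. Intervals and the 3-read floor cover counting error only.

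On simulated data (200 changed genes among 15992 and 15200) 2-fold changes were recovered in 80% for EB day 10 and 87% for E9.5 embryos, 4-fold ones in 95% and 100%. The changed genes were drawn only from well-counted genes, so recovery for members with few reads was not measured. The lone flox libraries were simulated with the same spread as the KI clones, so that assumption was not tested. Over 5 simulated comparisons false calls made up 4.40% to 6.60%, above the 5% aimed at for neural day 8 (6.60%) and trophectoderm (5.97%). DESeq2 1.42.0, other scalings and filters, summed transcripts, replicate blocks and leave-one-out fits were tried. Same-numbered E8.5 libraries deviated together (correlations 0.101 to 0.255), and the same KI clones were used on each culture day. Libraries of unlike numbers were not compared, so no baseline for such correlations is given. Title numbers, clones and flox library numbers entered only the alternative fits with a block. The main fits, whose p-values are reported unless stated otherwise, have no block. The members, the 17 gene lists (the members being 1 of them) and the tests were chosen with earlier results of these data known. Named are all 8 members, 7 fixed cardiac genes (Gata4, Gata6, Hand1, Tbx1, Myh6, Actc1, Tnnt2), the 3 called genes of a list with the largest change per direction, and the 3 nearest genes of each member. Some genes that this rule names are not reported here.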

Additional observations from a re-analysis of the deposited data

Results flagged for a closer look

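The KI difference itself changed between stages or days in the following members, by a test of the difference in edgeR with adjustment over all genes. Between E8.5 and E9.5 embryos it grew by 1.45 in log2 for Nkx2-5 and by 0.76 for Mef2c, and changed by -0.79 for Isl1. Nkx2-5 fell in controls to 6.23 CPM at E9.5 but stood at 24.9 CPM in KI, while Isl1 rose in controls to 23.2 CPM, where KI embryos had a mean of 22.5 CPM at E8.5. The summed neuronal markers of these embryos were at 186 to 277 CPM in E9.5 controls and 52.6 to 60.8 CPM in E8.5 controls, against 50.2 to 54.6 CPM and 49.8 to 59.7 CPM in KI.

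Between neural days 8 and 16 the KI difference changed by 2.10 for Tbx5, 1.72 for Mef2c and 2.46 for Smyd1. It changed by -3.76 for Myocd, which had 1 and 3 reads in the KI libraries of day 16, and by -1.19 for Hand2. Mef2c and Smyd1 were called lower in KI at day 8 and not at day 16. The summed neuronal markers were at 1577 to 1599 CPM in flox and 1014 to 1184 CPM in KI at day 8, and at 4000 to 4370 CPM and 6196 to 6671 CPM at day 16. The summed endothelial markers were at 132 CPM in flox and 23.1 to 29.2 CPM in KI at neural day 8, and at 45.4 to 48.6 CPM in flox and 2.96 to 6.63 CPM in KI at day 16. Their part in the 8 values was not tested. Groups held at most 3 libraries, so single libraries that stand apart within a group were not looked for by a test.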

How the results depend on the processing

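Of 142 tests of a member, 77 were called, and 63 of these held in every alternative fit tried. In the same 18 comparisons the share of all tested genes that was called ran from 0.73% to 79.9%. It was highest in the contrasts of culture days, so the count of 77 is no trait of the members. Over 1617 refitted member values no called value changed sign, 48 lost a call and 33 gained one, while the sign of some values that were not called with all libraries did vary. The count of members called changed by more than 1.5 times in 3 comparisons. At EB day 10 it was 3, and 6 without KI clone 27 or without clone 48 (leave-one-out range 6 to 6). For neural day 16 against day 8 in KI it was 8, with a leave-one-out range of 5 to 8 (5 without day 8 clone 27). For genotype averaged over the EB course it was 0, 1 by DESeq2, 2 without the ESC libraries, and 0 to 2 in leave-one-out fits (2 without the flox library of ESCs or of day 10).

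Counts over all genes moved more. Leave-one-out fits gave 438 to 604 genes in ESCs (1972 with all libraries), 159 to 188 at EB day 4 (1276), 4974 to 5020 for EB day 4 against ESC without a day 4 clone (7866), 363 to 546 at E8.5 in 4 of 6 such fits (843), and 1896 to 2111 at neural day 8 in 3 of 4 (3202). For extraembryonic endoderm they gave 3641 and 3651 without a flox library (5520), for the neural day interaction 3621 without day 8 flox library 2 (5450), and for the embryo stage interaction 607 and 654 in 2 fits (1024). Summing the neural day 8 flox libraries gave 2074 (3202). The EB course fit gave 778 by DESeq2, 26 to 332 in leave-one-out fits and 0 and 1 with only clone 27 or 48 (121). The cause of these moves was not tested.

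With the replicate block of title numbers, the genes called were 1304 at E8.5 (843) and 1547 for the stage interaction (1024). At E9.5, where same-numbered libraries had correlations of -0.022 to 0.11, 7 members and 5284 genes were called (4560). Blocking was also done by clone or by flox library number (correlation 0.041 for the flox libraries). It gave 6 members called for EB day 4 against ESC and 8 for day 10 against day 4. For neural day 16 against day 8 it gave 8 in KI and 7 in flox. The neural interaction had 6, where Isl1 was added (5 without the block). The block changed no other member call than those of Isl1 there and Nkx2-5 at E8.5.

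Scaling by library size alone moved the median of all genes at neural day 16 from 0.09 to -0.12 and the share of calls that were higher from 57.9% to 30.1% (43.4% with only the compared libraries), and for neural day 16 against day 8 in KI the median from 0.01 to -0.19. It moved the higher share from 49.5% to 65.4% in ESCs, from 50.2% to 64.8% between stages in controls, from 49.0% to 62.5% in KI, and from 57.8% to 37.6% in the neural interaction, whose median went from 0.08 to -0.09. By Spearman correlation 6 of the 24 nearest genes were again among the 3 nearest. Counts were low in ESCs, where all members had at most 38 reads. They were also low for Nkx2-5, Tbx20 and Myocd in neural cultures, which were the deepest libraries (39.02 to 59.88 M gene-level reads). Other low counts were those of Hand2 (4 and 2 reads) and Isl1 (9 and 6) in flox trophectoderm cultures. Tbx5 had 2 reads in each KI clone at EB day 4, and Smyd1 had 1 and 4 in KI extraembryonic endoderm cultures.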

Other observations

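Hand2 and Isl1 are also used outside the heart, so markers of those tissues are given here as values. At EB day 4, where Hand2 was called lower in KI, arch and crest markers summed to 130 CPM in flox and 50.0 to 53.0 CPM in KI. The sympathetic neuron markers summed to 11.7 CPM in flox and 8.6 to 9.7 CPM in KI, and the motor neuron markers to 4.8 CPM and 4.29 to 4.34 CPM. At EB day 10, where Hand2 was higher in KI, 1 of 7 pharyngeal arch and crest markers was higher, with sums of 53.1 CPM in flox and 73 to 132 CPM in KI. Of 7 limb and lateral plate markers 1 was higher and 1 lower, with sums of 444 CPM in flox and 415 to 560 CPM in KI, and of 5 sympathetic neuron markers tested 3 were lower. In trophectoderm cultures, where Hand2 had 119 to 124 reads in KI against 2 to 4 in flox, 4 of 7 arch markers were higher and 1 lower, and their sum was 36.3 to 37.8 CPM in flox and 124 to 127 CPM in KI. There the sympathetic neuron markers summed to 27.6 to 30.1 CPM in flox and 68.5 to 73.8 CPM in KI, with 1 of 4 tested higher and 1 lower. The limb and lateral plate markers summed to 41.7 to 42.5 CPM and 27.5 to 34 CPM, with 3 of 7 higher and 2 lower. In E9.5 embryos 3 of 7 arch markers were higher, 4 of 7 limb and lateral plate markers were higher and 1 lower, and 4 of 6 sympathetic neuron markers were lower and 1 higher. Of 5 skeletal muscle markers tested at E9.5, 4 were lower, and of 7 neural progenitor markers 6 were lower. The part of any of these tissues in the Hand2 or Isl1 values was not tested.

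The E9.5 KI levels can also be set beside the E8.5 controls, as values with no test. The lowest E9.5 KI library lay above the highest E8.5 control library in 5 of 8 members, and the highest lay under the lowest control in 1, Myocd. Among genes with a mean of at least 1 CPM the shares were 32.3% and 20.5%. Nkx2-5 stood at 24.9 ± 5.8 CPM (SD, n = 3) in E9.5 KI embryos and at 22.7 ± 2.1 CPM in E8.5 controls.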
